A study of Mus musculus with 20 samples.

Results

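The 10 genes described here, Cux2, Bcl6, Elovl3, Hsd3b5, Cyp7b1, Cyp2d9, Slco1a1, Mup20, Cyp2b9 and Cyp2b13, are mouse liver genes whose sex bias is known to follow the pattern of growth hormone release. They were taken by gene symbol from the 40440 distinct entries of a gene count table, in which each had exactly 1 entry. They were chosen by their level in each liver library, including how VAT removed liver 3 (below) differs from its group, so the liver values below are a description and carry no test. The other gene lists below were also chosen with earlier results of these data known. Their p-values, calls and shares in liver are therefore a description too and give no independent support. The libraries were made from liver and from subcutaneous fat (SAT) of male C57BL/6J mice, supplied by Jackson, which ate chow until surgery at 8 to 9 months of age and a high-fat diet afterwards. The 5 VAT removed livers and 5 VAT removed SAT samples came from mice that lost the epididymal visceral adipose tissue (VAT), and the 5 sham livers and 5 sham SAT samples came from mice that received the abdominal incision alone. The surgery was therefore the only labelled difference between groups, and the sources used here do not give the length of the high-fat feeding. A library is named below by its group and number, as in VAT removed liver 3.

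The pituitary of male rodents releases growth hormone in separate pulses with a near-absent hormone level between them, and that of females releases it almost continuously. In hepatocytes the hormone acts through its receptor, the kinase Jak2 and the transcription factor Stat5b, and a pulsed input keeps male-biased genes high and female-biased genes low. Bcl6 is a male-biased repressor that binds many of the sites that Stat5b uses, and Cux2 is a strongly female-biased factor that represses male-biased genes and activates some female-biased ones. Hormone release itself was not measured in the files used here.

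Total counts per library ran from 20307159, in VAT removed liver 3, to 43618452, and the other 9 livers held 26359022 to 37572706. Levels are in CPM, the count scaled to a common library size, with library sizes adjusted by edgeR's trimmed mean of M values (TMM). The 8 hepatocyte markers summed to 56100 to 72850 CPM in VAT removed livers and 55670 to 75450 CPM in sham livers, with 56100 CPM in VAT removed liver 3, so the tissue label held in every liver library. The adipocyte marker Adipoq was at most 0.352 CPM in VAT removed livers and at most 0.141 CPM in sham livers. The female transcript Xist was at most 1.01 CPM in all 10 livers, and Xist with 4 Y-linked genes summed to 126 to 162 CPM in VAT removed livers and 142 to 168 CPM in sham livers. No gene of the 17078 tested in liver passed an adjusted p of 0.05 with edgeR's quasi-likelihood test. Unadjusted p was under 0.05 for 799 genes that were higher (4.68%) and 892 that were lower (5.22%) after VAT removal, DESeq2 called 89 of 15393 genes higher (0.578%) and 131 lower (0.851%), and limma-voom called 1 higher (0.00586%) and 2 lower (0.0117%). Nothing in the labels assigns libraries to a processing batch, and nothing in them states outright that each library came from its own mouse, so p-values measure only the spread between these samples.

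Sequence upstream of a start given in the RefSeq table of build GRCm38.p6 was at hand for 7 of the 10 genes, in 9 windows of 250 bases. These starts did not all match the GENCODE gene ranges given below. The windows of Cux2 and Cyp2d9 and the second of Bcl6 lay inside the range of their gene, and that of Hsd3b5 lay well apart from its range. The windows were searched on both strands for TTCNNNGAA, the palindrome that Stat5 proteins bind and that Bcl6 can share, and for ATTGAT, a core recognised by Cux2 and by the liver factor Onecut1. Both Bcl6 windows held TTCNNNGAA and are shown because they alone of the 9 did. They lie on the minus strand, the first at chr16:23988853-23989102 and the second at chr16:23981284-23981533, and are printed 5′ to 3′ with the palindrome in capitals.

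Bcl6 window 1: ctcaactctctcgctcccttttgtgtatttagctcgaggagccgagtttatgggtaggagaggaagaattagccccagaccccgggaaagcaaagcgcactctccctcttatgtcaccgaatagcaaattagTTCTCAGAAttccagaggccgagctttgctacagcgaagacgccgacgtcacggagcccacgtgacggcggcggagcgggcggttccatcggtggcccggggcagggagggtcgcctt
Bcl6 window 2: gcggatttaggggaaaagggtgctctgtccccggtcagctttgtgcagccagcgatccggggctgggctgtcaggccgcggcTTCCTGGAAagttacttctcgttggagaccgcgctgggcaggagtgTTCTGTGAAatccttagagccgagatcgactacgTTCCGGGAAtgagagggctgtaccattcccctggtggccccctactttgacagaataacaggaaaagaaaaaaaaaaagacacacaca

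The match in the first window began 118 bases before the start, and the 3 matches in the second began 168, 122 and 88 bases before it. The palindrome was in 2306 of 32851 such windows over all genes (7.02%), and ATTGAT, which was in none of the 9 windows, was in 2209 (6.72%). These matches are letters in a window, and no binding was measured. The neighbouring genes Cyp2b9 and Cyp2b13, which were high and low in the same livers, are shown next because their upstream windows were almost the same. Capitals mark the bases that differ, on the plus strand at chr7:26173159-26173408 for Cyp2b9 and chr7:26061245-26061494 for Cyp2b13.

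Cyp2b9: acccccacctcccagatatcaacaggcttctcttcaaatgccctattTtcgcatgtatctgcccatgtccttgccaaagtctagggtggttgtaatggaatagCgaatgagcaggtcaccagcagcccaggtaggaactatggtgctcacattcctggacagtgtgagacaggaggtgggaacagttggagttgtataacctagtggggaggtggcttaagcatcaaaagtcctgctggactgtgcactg
Cyp2b13: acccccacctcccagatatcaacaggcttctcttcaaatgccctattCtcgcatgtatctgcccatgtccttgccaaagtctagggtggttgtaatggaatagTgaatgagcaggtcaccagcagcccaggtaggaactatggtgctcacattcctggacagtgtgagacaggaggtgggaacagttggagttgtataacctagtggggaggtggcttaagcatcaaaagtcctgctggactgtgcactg

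They shared 248 of 250 bases (99.2%), and the substitutions from Cyp2b9 to Cyp2b13, counted from the 5′ end of the window, were T48C and C104T.

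Cux2, on chromosome 5 at 121856366 to 122050102 of GRCm38 (GENCODE M21, minus strand), had the largest log2 difference between groups of the 10 genes. It was at 125, 2.04, 1.72, 59.7 and 23.1 CPM in VAT removed livers 1 to 5, against 1.13, 0.773, 1.53, 1.23 and 0.957 CPM in sham livers 1 to 5. All VAT removed livers were above all sham livers, although VAT removed livers 2 and 3 stood only just above the highest sham liver while livers 1, 4 and 5 were many times higher. The mean was 42.2 ± 51.8 CPM in VAT removed livers and 1.12 ± 0.284 CPM in sham livers (SD, n = 5 each), a log2 difference of 5.24 ± 1.18 (SE) in the edgeR fit, or 4.27 without VAT removed liver 1. Among all genes tested, 0.937% had all 5 VAT removed livers above all 5 sham livers and 1.5% had all 5 below.

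Bcl6, on chromosome 16 at 23965052 to 23988852 (minus strand), overlapped between the groups. Its levels were 39.6, 53.2, 20.5, 21.2 and 19.1 CPM in VAT removed livers and 46.5, 24.3, 40.9, 41.9 and 70.5 CPM in sham livers. VAT removed livers 3, 4 and 5 were below every sham liver, and VAT removed livers 1 and 2 were inside the sham range. Its log2 difference was -0.54 ± 0.35 (SE). For this gene VAT removed liver 3 had nearly the Bcl6 level of livers 4 and 5.

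Cyp2b9, a female-predominant steroid- and drug-metabolising cytochrome P450 on chromosome 7 at 26173411 to 26210661 (plus strand), was at 596, 321, 18.6, 613 and 427 CPM in VAT removed livers. Sham livers had 158, 29.0, 185, 179 and 26.5 CPM. VAT removed livers 1, 2, 4 and 5 were above every sham liver, and VAT removed liver 3 was below every sham liver. The sham group itself was split, with sham livers 2 and 5 several-fold below sham livers 1, 3 and 4. The log2 difference was 1.78 ± 0.84 (SE) with all 10 livers and 2.08 without VAT removed liver 3.

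Cyp2b13, its female-predominant neighbour at 26061497 to 26096197 on the same strand, had the same libraries at its low end. It was at 272, 38.7, 0.807, 325 and 53.9 CPM in VAT removed livers and at 8.69, 0.859, 5.67, 7.48 and 1.31 CPM in sham livers. Again VAT removed liver 3 was below every sham liver, here only just, VAT removed livers 1, 2, 4 and 5 were above all of them, and sham livers 2 and 5 were the lowest sham livers. Its log2 difference was 4.86 ± 1.26 (SE). Reads can be split between these paralogues, since 11.2% of the 50-base stretches of Cyp2b9 transcripts also occurred in other genes, mostly Cyp2b13. Of the stretches of Cyp2b13, 27.3% occurred in other genes, most often Gm45225. The sources used here do not say how reads with several matches were counted.

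**Figure D1:**
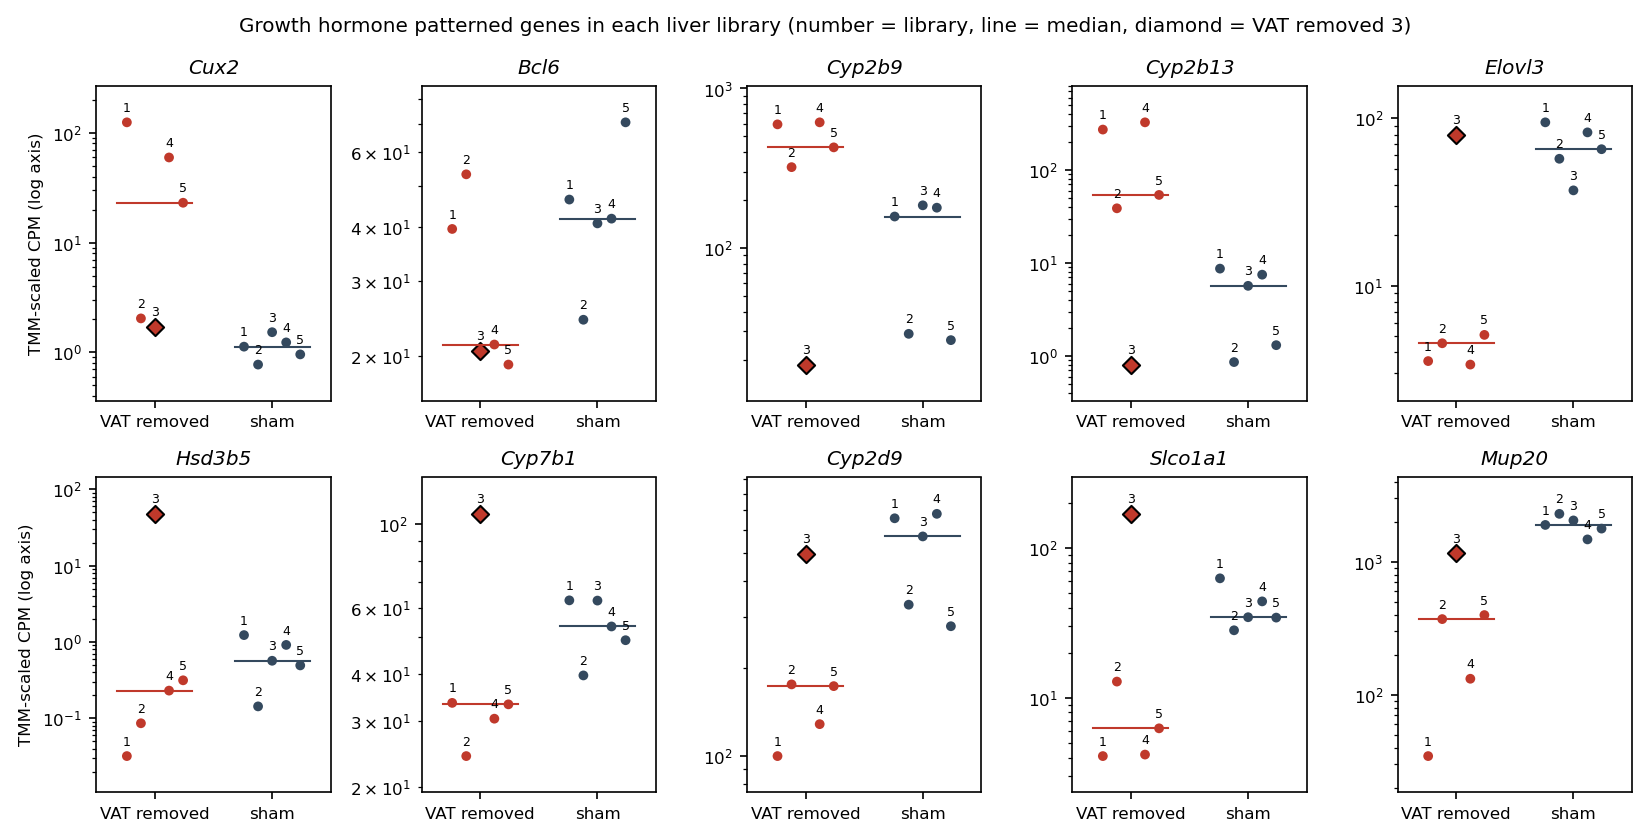
Level of each of the 10 genes in each liver library, in TMM-scaled CPM on a log axis of its own per gene. Points are libraries with their number, lines are group medians, and the diamond is VAT removed liver 3, which lies with or beyond the sham livers for most genes while the other VAT removed livers lie to the opposite side.

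Elovl3 elongates very long chain fatty acids and lies on chromosome 19 at 46131897 to 46135694 (plus strand). It was at 3.55, 4.53, 79.8, 3.38 and 5.09 CPM in VAT removed livers and at 94.6, 57.3, 37.1, 82.4 and 65.4 CPM in sham livers. Only VAT removed liver 3 was inside the sham range, and the other 4 lay within 3.38 to 5.09 CPM, far below any sham liver. The log2 difference was -1.84 ± 0.93 (SE) with all livers and -4.02 without VAT removed liver 3. Its exons overlap those of Pitx3, on the other strand, by 10 bases, and the sources used here do not say whether the counting used strand.

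Slco1a1, an organic anion uptake transporter on chromosome 6 at 141907282 to 141946962 (minus strand), was at 4.09, 12.9, 169, 4.19 and 6.27 CPM in VAT removed livers. Sham livers had 62.8, 28.3, 34.5, 44.1 and 34.3 CPM. The 4 other VAT removed livers were below every sham liver and VAT removed liver 3 was above every sham liver, so that the group means almost met, at 39.3 ± 72.7 CPM after VAT removal and 40.8 ± 13.5 CPM after sham surgery (SD, n = 5 each). The log2 difference of -0.07 ± 1.01 (SE) thus described neither the 4 livers nor the remaining liver, and it was -2.57 without VAT removed liver 3 and 0.22 without VAT removed liver 1.

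Hsd3b5, a male-specific steroid dehydrogenase family enzyme of mouse liver on chromosome 3 at 98618634 to 98630252 (minus strand), was low in 9 of the 10 livers. It was at 0.032, 0.0861, 47.8, 0.231 and 0.315 CPM in VAT removed livers and at 1.23, 0.143, 0.567, 0.915 and 0.493 CPM in sham livers. Behind these values lay 1, 3, 948, 6 and 12 counts in VAT removed livers and 35, 5, 16, 29 and 17 counts in sham livers. The log2 difference of 3.84 ± 1.77 (SE) rested on VAT removed liver 3 and was -1.97 without it. Of its 50-base stretches 21.2% occurred in other genes, mostly Gm10681.

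Cyp7b1, the oxysterol hydroxylase of the alternative bile acid pathway on chromosome 3 at 18071950 to 18243338 (minus strand), had the smallest spread over the 10 livers among the male-biased members, with a root mean square deviation of 0.60 about its mean on the log2(CPM + 0.5) scale. Levels were 33.4, 24.1, 107, 30.4 and 33.1 CPM in VAT removed livers and 62.7, 39.6, 62.6, 53.4 and 49.1 CPM in sham livers. All sham livers lay between VAT removed liver 3, which was above them, and the other 4 VAT removed livers, which were below. The log2 difference was -0.24 ± 0.38 (SE) with all livers and -0.82 without VAT removed liver 3.

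Cyp2d9, a male-predominant steroid hydroxylase on chromosome 15 at 82433437 to 82456845 (plus strand), was at 99.7, 176, 497, 128 and 174 CPM in VAT removed livers. Sham livers had 657, 331, 569, 681 and 279 CPM. VAT removed liver 3 was inside the sham range and the other 4 were below it. Sham livers 2 and 5, the libraries with low Cyp2b9 and Cyp2b13, also had the lowest Cyp2d9 of the sham group. In the sham livers this male-biased gene and the female-biased pair were thus low in the same libraries. Sham livers 2 and 5 were also the lowest of their group for Hsd3b5, Cyp7b1 and, only just, Slco1a1, but not for Elovl3 or Mup20. The log2 difference of Cyp2d9 was -1.23 ± 0.45 (SE), or -1.80 without VAT removed liver 3. Of its 50-base stretches 21.8% occurred in other genes, most often Cyp2d12. On the same strand, 186 bases of its exons (7%) overlap the pseudogene Gm46501 and 60 bases (2.26%) overlap the microRNA gene Gm27622.

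Mup20 encodes darcin, a major urinary protein that acts as a male pheromone, on chromosome 4 at 62050234 to 62054158 (minus strand). It was at 34.7, 371, 1157, 132 and 398 CPM in VAT removed livers and at 1896, 2298, 2050, 1476 and 1780 CPM in sham livers. All VAT removed livers were below all sham livers, VAT removed liver 3 came nearest to them, and VAT removed liver 1 was lowest. The mean was 419 ± 441 CPM in VAT removed livers and 1900 ± 306 CPM in sham livers (SD, n = 5 each), with a log2 difference of -2.18 ± 0.71 (SE), or -3.02 without VAT removed liver 3. Part of its sequence recurs in a pseudogene, as given with the profiles below.

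Divided by exon length, Mup20 had the highest median in both groups, with 400 CPM per kb in VAT removed livers and 2043 CPM per kb in sham livers. Cyp2b9 followed in VAT removed livers, with a median of 228 CPM per kb, against 84.0 CPM per kb in sham livers, where Cyp2d9 was the second at 214 CPM per kb (65.3 CPM per kb in VAT removed livers). The order below these was Cyp2b13, Cyp7b1, Bcl6, Elovl3, Cux2, Slco1a1 and Hsd3b5 in VAT removed livers, with medians of 28.8 CPM per kb for Cyp2b13 and 0.149 CPM per kb for Hsd3b5. In sham livers it was Elovl3, Cyp7b1, Slco1a1, Bcl6, Cyp2b13, Hsd3b5 and Cux2, with 33.1 CPM per kb for Elovl3 and 0.112 CPM per kb for Cux2. Neighbours in these orders overlapped in range over the libraries, apart from Cyp7b1 and Bcl6 in VAT removed livers, and Mup20 and Cyp2d9, Cyp2d9 and Cyp2b9, and Cyp7b1 and Slco1a1 in sham livers.

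For 9 of the 10 genes VAT removed liver 3 was outside the range of the other 4 VAT removed livers. All 6 male-biased genes were higher in it and Cux2, Cyp2b9 and Cyp2b13 were lower, with Bcl6 inside the range. Over all 17078 genes tested it was outside the range of the other 4 for 51.6%, with 25.7% above and 25.9% below, and the other VAT removed livers were outside the range of their group for 5, 2, 3 and 1 of the 10 genes (libraries 1, 2, 4 and 5), beside 39.7%, 45.3%, 32.5% and 30.8% of all genes.

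The distance differed greatly by gene. VAT removed liver 3 was 288-fold above the mean of the other 4 VAT removed livers for Hsd3b5, 24.7-fold for Slco1a1 and 19.3-fold for Elovl3, but only 4.94-fold for Mup20, 3.52-fold for Cyp7b1 and 3.44-fold for Cyp2d9. For the genes lower in it, the mean of the other 4 was 214-fold above VAT removed liver 3 for Cyp2b13, 30.5-fold for Cux2 and 26.3-fold for Cyp2b9. Against the sham livers, VAT removed liver 3 was above every sham liver for Cux2, Hsd3b5, Cyp7b1 and Slco1a1, for Cux2 only just. It was below every sham liver for Bcl6, Mup20, Cyp2b9 and Cyp2b13, for Cyp2b13 only just. Over all 17078 genes tested it was above every sham liver for 22.9% and below every sham liver for 21.1%. Its ratio to the sham mean was 71.4 for Hsd3b5, 4.15 for Slco1a1, 1.19 for Elovl3, 0.987 for Cyp2d9 and 0.161 for Cyp2b9.

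The other 4 VAT removed livers, VAT removed liver 3 having been set aside after its values were seen, did not overlap the 5 sham livers for 8 of the 10 genes. Cux2, Cyp2b9 and Cyp2b13 were above in all 4, and Elovl3, Cyp7b1, Cyp2d9, Slco1a1 and Mup20 were below in all 4. Among all genes tested, 2.04% had these 4 above all sham livers and 3.31% had them below. The mean of the 4 was 46.7-fold above the sham mean for Cux2, 35.9-fold for Cyp2b13 and 4.24-fold for Cyp2b9. The sham mean was 16.3-fold above that of the 4 for Elovl3, 8.12-fold for Mup20, 5.96-fold for Slco1a1, 4.04-fold for Hsd3b5, 3.49-fold for Cyp2d9 and 1.77-fold for Cyp7b1.

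Within these 4, the members did not grade the libraries alike. VAT removed livers 1 and 4 had the highest Cux2, Cyp2b9 and Cyp2b13 and the lowest Mup20 and Cyp2d9, whereas VAT removed liver 2 had Cux2 of only 2.04 CPM together with Elovl3 of 4.53 CPM, a level like that of VAT removed livers 1, 4 and 5. Low Elovl3 was thus measured both with high and with near-sham Cux2. Library depth was lowest in VAT removed liver 3, and the part of depth in its values was not tested. Its summed Kupffer cell markers were 307 CPM and its cholangiocyte markers 44.9 CPM, against 205 to 529 CPM and 49.2 to 103 CPM in sham livers. Other VAT removed livers left the sham ranges further. Kupffer markers summed to 765 CPM in VAT removed liver 1, and cholangiocyte markers to 32, 243 and 151 CPM in VAT removed livers 1, 2 and 5. Stellate cell markers summed to 404, 1029 and 804 CPM in VAT removed livers 1, 2 and 5, against 452 to 776 CPM in sham livers, and endothelial markers to 428, 394 and 403 CPM in VAT removed livers 1, 2 and 4, against 294 to 356 CPM in sham livers. The part of these cells in the liver values was not tested. In bulk tissue, fewer cells of a type and less RNA per cell cannot be told apart.

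**Figure D2:**
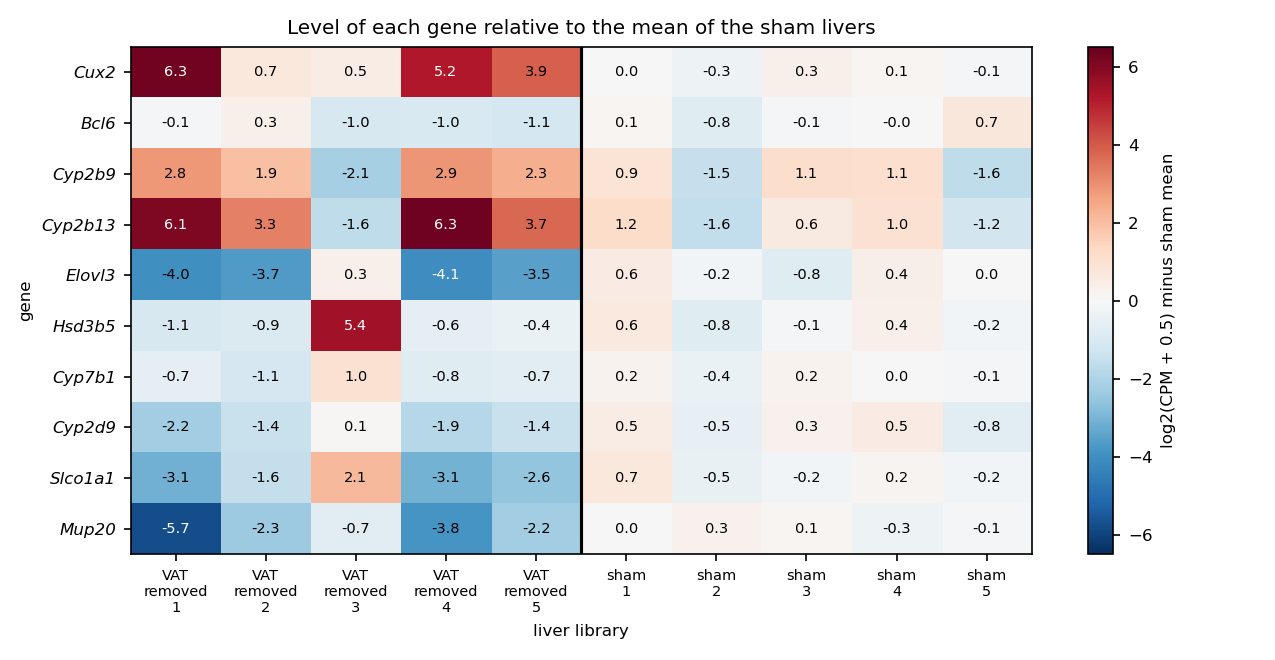
Level of each of the 10 genes in each liver library as the difference of log2(CPM + 0.5) from the mean over the 5 sham livers. Red is above and blue below the sham mean, and the column of VAT removed liver 3 has the opposite colour to VAT removed livers 1, 2, 4 and 5 for Cyp2b9, Cyp2b13 and 5 of the 6 male-biased genes, with Mup20 at -0.7.

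The growth hormone pathway itself was read from a list of 14 receptor, signalling and feedback genes, all tested, with a median log2 difference of 0.01 beside 0.01 for all genes. The receptor Ghr (-0.05 ± 0.15), Jak2 (-0.07 ± 0.09) and Stat5b (-0.02 ± 0.07) had log2 differences (± SE) near 0, while 4 genes had an unadjusted p under 0.05 as higher and 1, the phosphatase Ptpn11, as lower, against 4.68% and 5.22% of all genes. Socs2, a feedback inhibitor of the receptor, was at 18.6, 6.83, 15.4, 16.1 and 25.8 CPM in VAT removed livers and 5.17, 3.78, 4.26, 7.04 and 4.03 CPM in sham livers. All VAT removed livers but the second were above every sham liver, and the log2 difference was 1.77 ± 0.31 (SE; edgeR adjusted p = 0.175). Cish, a second feedback inhibitor, had a log2 difference of 1.63 ± 0.32 (SE; edgeR adjusted p = 0.219), with 18.6 CPM in VAT removed liver 3 as its highest level. DESeq2 called both genes higher, beside 0.578% of all genes, and limma-voom did not (adjusted p = 0.241 for Socs2 and 0.273 for Cish). With VAT removed liver 2 left out, the lowest of its group for both, edgeR called both (adjusted p = 0.0218 for each). Leaving out the lowest library raises the mean of its group, so these calls are a description. With VAT removed liver 3 left out, edgeR called neither (edgeR adjusted p = 0.0704 and 0.0859). Leaving out any 1 liver library gave at most 16 genes higher among all genes. For Socs2 and Cish, VAT removed liver 3 had the direction of its own group. Igfals and Igf1, the hormone's secreted targets, had log2 differences of 0.74 ± 0.24 and 0.39 ± 0.15 (SE; edgeR adjusted p = 0.363 and 0.418).

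Other male-biased liver genes, a list of 27 of which 25 were tested, were mostly lower after VAT removal. The log2 difference was negative for 20 of 25, with a median of -0.30 that became -1.07 without VAT removed liver 3, and none passed an adjusted p of 0.05 with edgeR. Unadjusted p was under 0.05 for 3 of them, all lower, against 5.22% of all genes. Ugt2b38, a glucuronosyltransferase, averaged 8.5 ± 1.56 CPM in VAT removed livers and 12.3 ± 1.51 CPM in sham livers (SD, n = 5 each), a log2 difference of -0.53 ± 0.14 (SE; edgeR adjusted p = 0.259). Gstp1, a glutathione transferase, averaged 182 ± 71.0 CPM in VAT removed livers and 326 ± 37.4 CPM in sham livers (SD, n = 5 each), a log2 difference of -0.84 ± 0.24 (SE; edgeR adjusted p = 0.307). These were the 2 genes of the list with all VAT removed livers below all sham livers, beside 1.5% of all genes, and DESeq2 called them and Gstp2 lower, beside 0.851% of all genes. Gstp2 and Selenbp2, a selenium-binding protein, had log2 differences of -0.86 ± 0.25 and -1.43 ± 0.67 (SE; edgeR adjusted p = 0.309 and 0.527). Gstp1 and Gstp2, like the Mup genes and the Cyp2c genes below, have closely similar copies between which reads can be split.

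Among these male-biased genes VAT removed liver 3 was above the other 4 VAT removed livers for 23 of the 25 and below them for none, beside 25.7% and 25.9% of all genes. Serpina1e, Egfr and C6 are named here after their values were seen. Serpina1e, a serine protease inhibitor, was at 18.0, 65.6, 3912, 21.0 and 47.7 CPM in VAT removed livers and between 281 and 447 CPM in sham livers. Egfr, the epidermal growth factor receptor, reached 996 CPM in VAT removed liver 3, against 120 to 188 CPM in the other VAT removed livers and 240 to 351 CPM in sham livers. The complement component C6 reached 248 CPM in VAT removed liver 3, against 31.9 to 59.5 CPM in the other VAT removed livers and 114 to 167 CPM in sham livers. All 3 had the shape of Slco1a1, above every sham liver in VAT removed liver 3 and below every sham liver in the other 4. Without VAT removed liver 3, edgeR called 7 of the list lower (Mup9, Mup11, C6, Cyp2u1, Gstp2, Egfr and Serpina1e), in a fit that called 0.213% of 17407 genes lower and 0.0919% higher, and 15 of the 25 had the 4 remaining livers below all sham livers, beside 3.31% of all genes. That liver was left out after its values were seen, and the list was chosen with earlier results known, so these counts are a description.

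Other female-biased liver genes, a list of 31 of which 24 were tested, were mostly higher after VAT removal. The log2 difference was positive for 20 of 24, with a median of 0.89, or 1.06 without VAT removed liver 3. Unadjusted p was under 0.05 for 13 as higher and 1, Cyp39a1, as lower, against 4.68% and 5.22% of all genes, and none passed after adjustment with edgeR, while DESeq2 called 8 higher, beside 0.578% of all genes. Cyp2c40, an arachidonic acid metabolising P450, was at 60.5, 13.8, 11.7, 56.5 and 18.1 CPM in VAT removed livers and 5.77, 4.95, 4.93, 5.33 and 5.42 CPM in sham livers. All VAT removed livers were above all sham livers, with a log2 difference of 2.61 ± 0.48 (SE; edgeR adjusted p = 0.211). Slc22a26, an organic anion transporter family member, was at 115, 4.16, 2.88, 35.1 and 10.3 CPM in VAT removed livers and at 0.464 to 1.06 CPM in sham livers. The log2 difference was 5.37 ± 1.1 (SE; edgeR adjusted p = 0.233), and VAT removed livers 1 and 4 were the highest, as for Cux2. Cyp2c69 likewise did not overlap, with a log2 difference of 4.54 ± 0.90 (SE; edgeR adjusted p = 0.221). Prlr, the prolactin receptor, had a log2 difference of 1.49 ± 0.31 (SE; edgeR adjusted p = 0.233).

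For this list VAT removed liver 3 was below the other 4 VAT removed livers for 19 of 24 genes and above them for none, beside 25.9% and 25.7% of all genes. In the fit without it, edgeR called Cyp2c40 and Slc22a27 higher, beside 0.0919% of all genes, which is again a description. The 4 remaining livers were above all sham livers for 8 of the 24 genes, beside 2.04% of all genes. Another 7 of the listed genes were too low in most libraries to be tested, and of these A1bg and Sult2a2 are named after their values were seen. A1bg was at 443, 1.84, 0.101, 15.4 and 6.08 CPM in VAT removed livers and at most 0.286 CPM in sham livers. Sult2a2, a sulfotransferase, was at 38.4, 0.229, 0, 26.6 and 0.472 CPM in VAT removed livers and at most 0.174 CPM in sham livers, so VAT removed liver 2 was little above the highest sham liver and VAT removed liver 3 was at 0. Sult3a1, whose VAT removed livers were all above the sham livers, stayed at or below 0.927 CPM. These 3 genes had their highest levels in VAT removed livers 1 and 4, the livers with the highest Cux2.

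Averaged over each list, the position of a library relative to the sham mean was -1.68, -1.27, 0.99, -1.64 and -1.06 on the log2(CPM + 0.5) scale for the male-biased genes in VAT removed livers 1 to 5. The female-biased genes had 1.68, 0.59, -0.29, 1.77 and 1.20 in the same libraries. Sham livers lay between -0.28 and 0.34 for the male-biased genes and between -0.29 and 0.27 for the female-biased genes. The 4 livers other than VAT removed liver 3 therefore lay below every sham liver for the male-biased genes and above every sham liver for the female-biased genes. VAT removed liver 3 was above every sham liver for the male-biased genes. For the female-biased genes it was level with sham liver 1, the lowest sham liver.

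**Figure D3:**
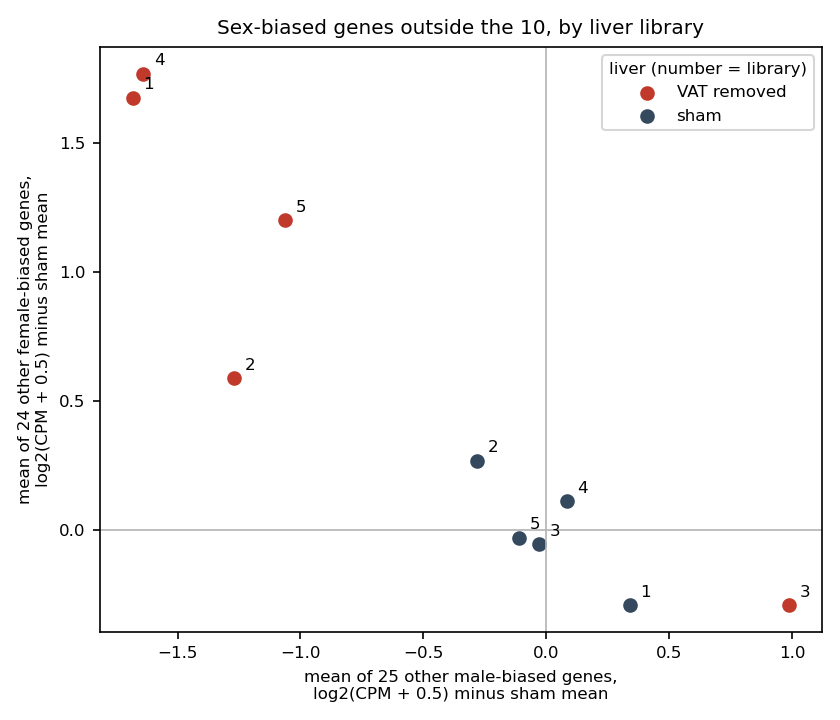
Mean difference from the sham livers, on the log2(CPM + 0.5) scale, over 25 male-biased genes (horizontal axis) and 24 female-biased genes (vertical axis) outside the 10, with 1 point per liver library. VAT removed livers 1, 2, 4 and 5 lie at the upper left, between -1.68 and -1.06 horizontally. VAT removed liver 3 lies at the lower right at 0.99, and on the vertical axis it is level with the lowest sham liver.

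Transcription factors of the liver, a list of 19 that were all tested, had a median log2 difference of 0.11, with 2 genes at an unadjusted p under 0.05 as higher and 1 as lower, against 4.68% and 5.22% of all genes. Onecut1, a homeobox factor of hepatocytes, was at 33.0, 17.3, 64.1, 29.1 and 36.9 CPM in VAT removed livers. Sham livers had 21.3, 21.8, 8.23, 9.31 and 8.93 CPM. VAT removed liver 3 was the highest library for Onecut1 and VAT removed liver 2 was inside the sham range, with a log2 difference of 1.37 ± 0.40 (SE; edgeR adjusted p = 0.31). The adjusted p for Onecut1 was 0.0225 in DESeq2, which called it higher, and 0.295 in limma-voom. Foxa2, a pioneer factor of hepatocytes, had a log2 difference of 0.33 ± 0.12 (SE; edgeR adjusted p = 0.391). The values for the nuclear receptors Rora and Nr1i2, the xenobiotic sensor, were -0.16 ± 0.07 and 0.20 ± 0.10 (SE; edgeR adjusted p = 0.495 and 0.535).

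Profiles over the 10 livers were compared by the root mean square (RMS) difference of log2(CPM + 0.5), each gene centred on its own mean, among 12521 genes. These averaged 1 CPM or more and had no clone-style name, so genes named like Gm10681 were not compared. Nearest to Cux2, whose own RMS about its mean was 2.36, were Slc22a26 at 0.60, Cyp2c69 at 0.68 and Acot3 at 1.08. For Elovl3, with an RMS of 1.93, they were Mup14 at 0.51, Pitx3 at 0.69 and Slco1a1 at 0.80. Pitx3 is the gene whose exons overlap those of Elovl3. Hsd3b5, with an RMS of 1.81, had no close neighbour among the genes compared, the nearest being Clec2h at 0.92, Mup17 at 1.02 and Igkv4-55 at 1.05, which like it were highest in VAT removed liver 3. For Cyp2b9, with an RMS of 1.79, Cyp46a1 at 0.63, Hao2 at 0.87 and Slc22a27 at 0.97 were nearer than Cyp2b13 at 1.31. Mup20 was followed by Mup-ps19 at 0.06, a pseudogene, and 50.5% of the 50-base stretches of Mup20 occurred in other genes, mostly Mup-ps19, so these 2 profiles may hold some of the same reads.

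In SAT, which played no part in choosing the genes, 4 of the 10 passed the count filter. No gene of the 18530 tested in SAT passed an adjusted p of 0.05 with edgeR, unadjusted p was under 0.05 for 811 as higher (4.38%) and 1162 as lower (6.27%), DESeq2 called 53 higher (0.3%) and 105 lower (0.594%), and limma-voom called 0. All 5 VAT removed SAT libraries were above all 5 sham ones for 0.831% of genes and below for 0.61%, and for none of the 4 members. Sham SAT 3 and 4 stood apart, with summed lymphocyte markers of 377 and 369 CPM, against 4.22 to 9.26 CPM in the other SAT libraries. Cux2 was at 45.4, 27.1, 26.3, 38.3 and 35.3 CPM in VAT removed SAT and 29.4, 26.7, 18.9, 17.4 and 27.9 CPM in sham SAT. The groups overlapped, and sham SAT 3 and 4 were lowest. Its log2 difference in SAT was 0.52 ± 0.19 (SE; edgeR adjusted p = 0.431, with adjusted p = 0.21 in DESeq2 and 0.619 in limma-voom), and it was 0.30 (edgeR adjusted p = 0.634) without sham SAT 3 and 4. The part of lymphocytes in the Cux2 values was not tested. With each tissue scaled on its own, Cux2 was above its sham liver level in every SAT library.

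Bcl6 was at 76.6, 111, 104, 88.1 and 58.1 CPM in VAT removed SAT and 80.4, 123, 116, 87.3 and 143 CPM in sham SAT, with a log2 difference of -0.33 ± 0.20 (SE; edgeR adjusted p = 0.565). The groups overlapped widely. Cyp7b1, at 0.635 to 1.73 CPM in VAT removed SAT and 0.444 to 1.55 CPM in sham SAT, had a log2 difference of 0.41 ± 0.41 (SE; edgeR adjusted p = 0.75), or 1.07 without sham SAT 3 and 4. For Cyp2b9, at 0.333 to 1.31 CPM in VAT removed SAT and 0.303 to 0.727 CPM in sham SAT, it was 0.52 ± 0.38 (SE; edgeR adjusted p = 0.635). The remaining 6 genes were at most 0.64 CPM in every SAT library. Hepatocyte markers summed to 4.61 to 32.4 CPM over the SAT libraries.

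**Figure D4:**
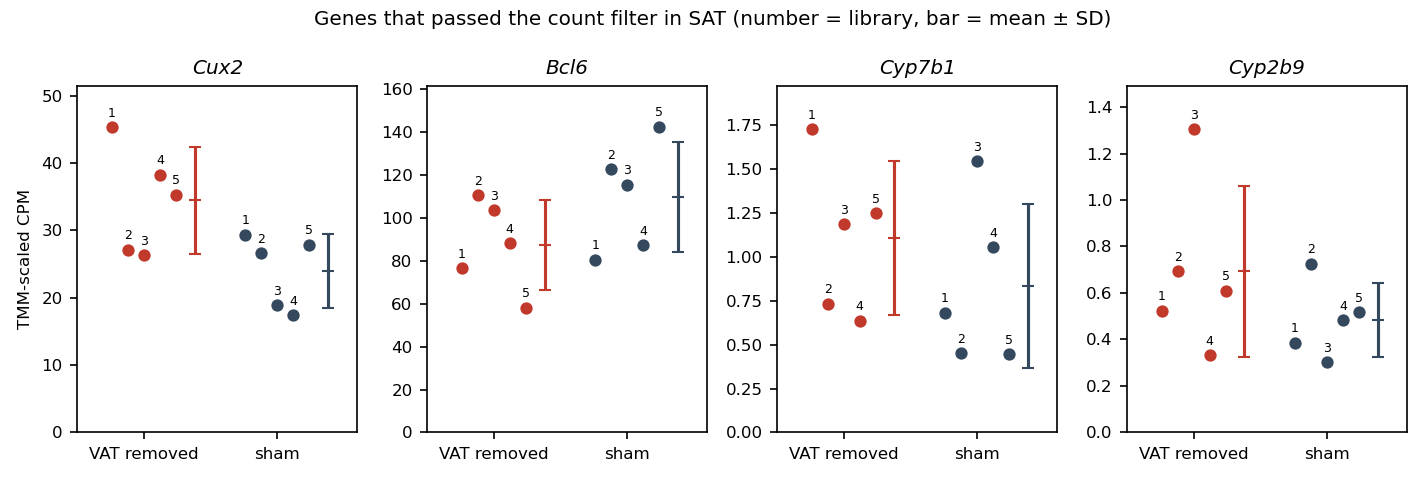
Levels in SAT, in TMM-scaled CPM from 0, of the 4 genes that passed the count filter there. Points are libraries with their number and bars are the mean ± SD of 5 libraries, and the VAT removed and sham groups overlap for all 4 genes.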

How the data were processed

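Gene counts were deposited by the authors for 20 libraries, 5 in each of 4 groups. Per the submitters' processing notes they used bcl2fastq, STAR 2.5.1a, build GRCm38 and featureCounts 1.46 of Subread. The sources used here do not give the annotation or the handling of strand and of multiple matches. The protocol depleted ribosomal RNA, per the labels.

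Of 40757 rows 317 exact repeats were dropped, leaving 40440. VAT removed was compared with sham within each tissue with edgeR 4.0.16 (R 4.3.3) on the deposited counts, using filterByExpr, TMM scaling, the robust quasi-likelihood test and Benjamini-Hochberg adjustment at 0.05, with 17078 genes tested in liver and 18530 in SAT. DESeq2 1.42.0, limma-voom (limma 3.58.1), other scalings and filters, a replicate block and leaving out each library were alternatives. The model was tested on simulated data.

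The members and gene lists were chosen with earlier results of these data known. From each other list the 4 genes with the smallest unadjusted p, those whose groups did not overlap, and for 4 members the 3 nearest profiles are named. Equal replicate numbers were not treated as pairs.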

Additional observations from a re-analysis of the deposited data

Results flagged for a closer look

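Gaps within groups of 5 libraries were examined for the 10 genes and the other named genes in 80 groups, and in 14 the gap of an end library to its nearest neighbour was more than 0.71 of the group's range, the 95% critical value of Dixon's test. Chance passes it in about 1 of 20 groups. The 10 genes, however, were chosen by these liver values, and Slc22a26, Mup14, Pitx3, Clec2h, Mup17 and Igkv4-55 by their likeness to them. Selenbp2 and Igfals were named by their small unadjusted p in the same livers. That rate therefore applies to none of the flagged genes, and their gaps are a description with no test. Of the 14, VAT removed liver 3 made up 11, including 5 genes of the set. Its levels, each far above the next VAT removed liver, were 79.8 CPM for Elovl3, 47.8 CPM for Hsd3b5, 107 CPM for Cyp7b1, 497 CPM for Cyp2d9 and 169 CPM for Slco1a1. Outside the set, VAT removed liver 3 stood apart at 105 CPM for Selenbp2, 29.2 CPM for Mup14, 5.70 CPM for Pitx3, 8.07 CPM for Clec2h, 41.1 CPM for Mup17 and 9.63 CPM for Igkv4-55.

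Igfals was low in VAT removed liver 2, at 43.7 CPM with the next library at 102 CPM. Slc22a26 was high in VAT removed liver 1, at 115 CPM with the next at 35.1 CPM. Mup14 was high in sham liver 1, at 25.04 CPM with the next at 10.8 CPM.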

How the results depend on the processing

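The edgeR counts of 0 genes higher and 0 lower in liver became 89 and 131 with DESeq2, and 1 and 2 with limma-voom, with no filter and with a filter of at least 1 CPM in 5 libraries. Leaving out each liver library gave 0 to 16 genes higher and 0 to 37 lower, both highest without VAT removed liver 3. In SAT the counts of 0 and 0 became 53 and 105 with DESeq2, and leaving out each library gave 0 to 0 genes higher and 0 to 1 lower, with that 1 found without sham SAT 5. The other scalings and the fit without robust estimation left 0 calls in both tissues. Of the 10 genes, 8 kept the sign of their liver difference under all alternatives run, and Hsd3b5 kept it in 15 of 17 and Slco1a1 in 13 of 18.

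The replicate block gave 0 and 0 calls in liver and 0 and 0 in SAT. Samples of the 2 groups with the same number had deviations that correlated at 0.136, 0.19, -0.077, 0.208 and 0.218 in liver and -0.083, 0.357, -0.27, 0.006 and 0.158 in SAT. Samples with different numbers were not correlated, so these values cannot show whether the numbers mark pairs. The main fits did not take them as pairs. Leaving out sham SAT 3 and 4 was added after the data were seen. Depth limits Hsd3b5 most, with 1 to 35 counts in 9 of the 10 livers.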
